A study of Mus musculus with 6 samples.

Results

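The cells described here are fibroblasts of mouse skin that hold RNA of Coch, the gene of the secreted protein cochlin, and in part RNA of Kera, the gene of keratocan. Single cells were chosen from 6 libraries as barcodes with at least 300 detected genes and at most 15% of unique molecular identifiers (UMIs, each a counted mRNA molecule) in mitochondrial genes. A member then had at least 5 UMIs of Coch and Kera together, at least 1% of its UMIs in Col1a1, Col1a2, Col3a1 and Dcn, no UMI of Pecam1 or Cdh5 and less than 0.5% in Krt5 and Krt14. In all 572 cells met this rule, of 25772 barcodes that passed the quality limits and of 7591 that passed the same collagen, endothelial and keratin gates whatever their Coch and Kera (gated fibroblasts). The other 7019 gated fibroblasts are the comparison cells, called other fibroblasts. Because measured values chose the members, their difference from other fibroblasts is given as a description with no test.

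The study profiled digested skin of Balb/c mice by 3′ single-cell RNA sequencing on the 10x Genomics platform (version 2 chemistry). Skin was sensitized through the surface (epicutaneously) for 10 days and taken 2 days after that. The 3 libraries titled EC-OVA carry the treatment OVA-sensitized (OVA is ovalbumin, a model allergen), and the 3 titled EC-SAL carry the treatment control. The labels describe the tissue of all 6 libraries as sensitized skin, name no genotype, age or sex, and give CD4 as the cell type, a name that 25772 barcodes with 7591 gated fibroblasts and 5391 keratinocyte barcodes do not bear out. They also do not say whether replicates are separate mice, so p-values reflect differences among these 6 libraries alone, part of which can be technical.

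Cochlin is an extracellular matrix protein best known from the inner ear. Keratocan belongs to the small leucine-rich proteoglycans, a family that also holds fibromodulin (Fmod), lumican (Lum), decorin (Dcn), biglycan (Bgn), osteoglycin (Ogn), asporin (Aspn) and prolargin (Prelp). These proteins bind collagen fibrils and govern their width and spacing, as is known best from cornea and tendon. Tenomodulin (Tnmd) and the transcription factor mohawk (Mkx) mark tendon and other dense collagenous tissue, and Crabp1 encodes a protein that binds retinoic acid in the cytoplasm. On the mm10 genome, in the GENCODE M21 annotation, Coch lies at chr12:51593341-51605771, Kera at chr10:97606879-97613692, Crabp1 at chr9:54764748-54773110, Fmod at chr1:134037254-134048277 and Tnmd at chrX:133850980-133865577.

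Coch rather than Kera made up most of the chosen UMIs. Among the 572 members 557 had at least 5 Coch UMIs by themselves, while 271 (47.4%) had any Kera UMI and 258 had UMIs of both genes. The median member held 46.5 Coch UMIs, with quartiles of 13 and 113 and a highest value of 457. Near the limit the numbers fell steadily: 32 gated fibroblasts had exactly 5 UMIs of the pair and 28 had 6, against 43 with 4, 66 with 3, 106 with 2 and 336 with 1. A further 89 quality-passing barcodes had 5 or more UMIs and were not members, 83 of them by the collagen and Dcn limit, 9 by the endothelial limit and 4 by the keratin limit. As a background, 90 of 5391 keratinocyte barcodes (1.67%) and 551 of 7019 other fibroblasts (7.85%) held any Coch or Kera UMI, and 1 keratinocyte barcode reached 5. Median depth was 6929 to 7689 UMIs in keratinocyte barcodes and 3867 to 5400.5 UMIs in members over the 6 libraries.

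The members were not uniform. They were split by their Coch and Kera UMIs into 110 cells with 5 to 9, 110 cells with 10 to 29 and 352 cells with 30 or more, a split made after the data were seen. Crabp1 stood at 133 CPM (UMIs per 1000000 UMIs of the set) in the lowest band, at 380.0 CPM in the middle band and at 2577 CPM in the highest, beside 112 CPM in other fibroblasts. Fmod followed the same order with 311 CPM, 416 CPM and 3715 CPM, beside 378 CPM in other fibroblasts. Tnmd stood at 845 CPM, 1090.3 CPM and 3982 CPM, beside 504 CPM. So the genes that name this population were high in the 352 cells with 30 or more UMIs, while the lowest band lay near other fibroblasts in Crabp1 and Fmod. Ngb, the gene of neuroglobin, an oxygen-binding globin known from neurons, stood at 1.55 CPM, 21 CPM and 213 CPM in the same order. Matrix genes of general fibroblasts ran the other way: Lox, the collagen crosslinking enzyme, stood at 461 CPM, 414 CPM and 78.3 CPM, and Col12a1 at 306 CPM, 311 CPM and 46.1 CPM.

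**Figure D1:**
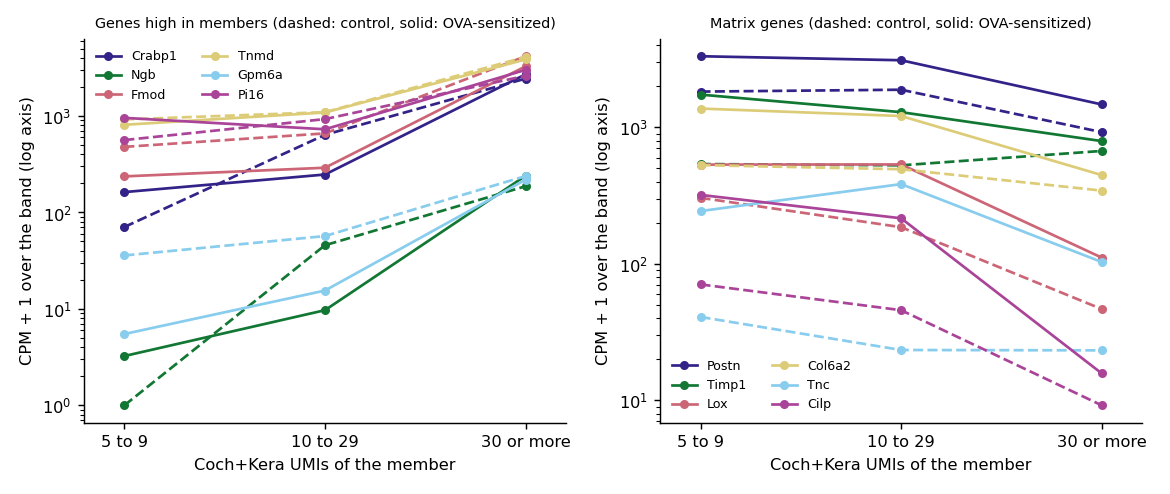
Summed level (CPM + 1, log axis) of 6 genes that are high in the members (left) and 6 matrix genes (right) in members with 5 to 9, 10 to 29 and 30 or more Coch and Kera UMIs; dashed lines join control cells and solid lines OVA-sensitized cells. Crabp1, Ngb, Fmod, Tnmd, Gpm6a and Pi16 are highest in the band of 30 or more in each group, and Tnc, Lox, Postn and Cilp are lowest there.

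A small set of 15 members had fewer than 5 Coch UMIs and entered through Kera. Their summed profile held 1753 CPM of Kera, 13.9 CPM of Crabp1 and no Ngb UMI. Fmod stood at 1474 CPM in them against 2386 CPM in the 557 members with 5 or more Coch UMIs, and Tnmd at 1530.1 CPM against 2795 CPM. Thbs4, a thrombospondin of tendon, stood at 1780.5 CPM against 27.5 CPM, and Comp, the cartilage oligomeric matrix protein, at 1155 CPM against 7.41 CPM. Of these tendon genes Thbs4 and Comp were higher in the 15 cells and Tnmd was lower.

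Within each library the members were set beside other fibroblasts. Of 3031 genes with at least 50 CPM in either set, 24 (0.792%) were at least 4-fold higher in members in all 6 libraries and 39 (1.29%) at least 4-fold lower. Both counts leave out genes of the rule, predicted genes, ribosomal protein and mitochondrial genes, Xist and Tsix. The 3031 genes were counted without that limit. Both counts describe the contrast that chose the cells. Coch stood at 14233 ± 1896 CPM in members and 18.3 ± 1.06 CPM in other fibroblasts (mean ± SD over 6 libraries), and Kera at 302 ± 87.4 CPM in members and 5.31 ± 1.48 CPM in other fibroblasts. Among genes the rule did not name, Ngb had the highest ratio, with 131 ± 18.7 CPM in members and 0.439 ± 0.224 CPM in other fibroblasts. Gpm6a, a neuronal membrane glycoprotein, stood at 149 against 4.31 CPM, Crabp1 at 1657 against 106 CPM and Hs3st6, a heparan sulfate sulfotransferase, at 109.6 against 4.28 CPM. Further genes near the top were Cybrd1 (a ferric reductase, 65.9 against 2.41 CPM), Rspo4 (a Wnt-potentiating R-spondin, 53.6 against 2.31 CPM), Ntn5, Cpne5, Cryaa (a lens crystallin, 111 against 7.11 CPM), Cck, Emid1, Meox2 and Mkx (82.5 against 9.42 CPM). Itgb4, the β4 integrin of hemidesmosomes, stood at 88.1 against 4.62 CPM, beside 72.8 CPM in keratinocyte barcodes.

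**Figure D2:**
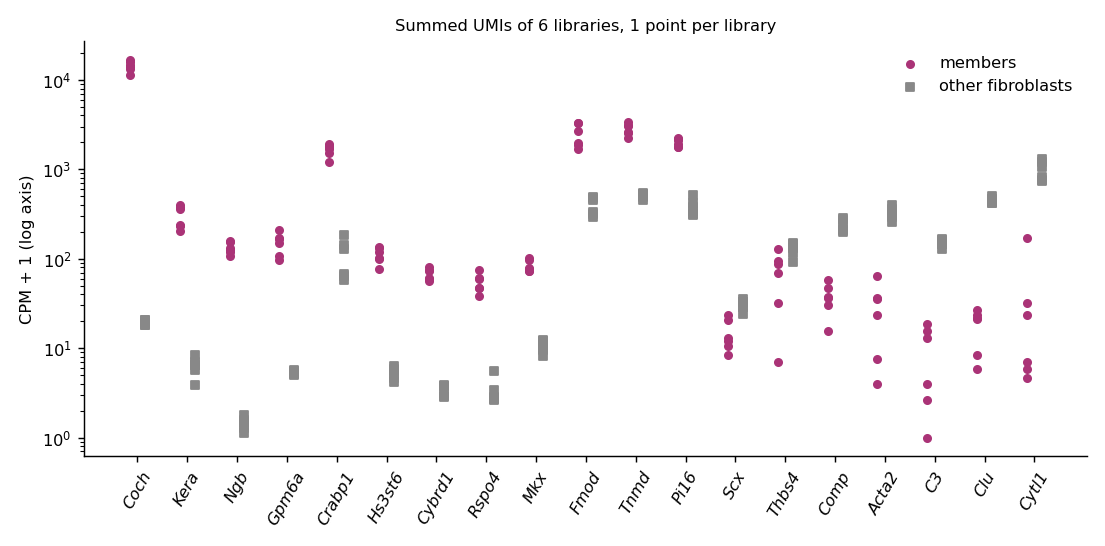
Summed level (CPM + 1, log axis) of 19 genes in members (circles) and other fibroblasts (squares), 1 point per library for 6 libraries. Members lie above other fibroblasts from Coch to Pi16 and below them for Comp, Acta2, C3, Clu and Cytl1 in the 6 libraries.

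Proteoglycans divided the populations gene by gene. Fmod (2463 against 390.1 CPM), Ogn (747 against 172 CPM), Aspn (2319 against 1025 CPM) and Prelp (411 against 252 CPM) were higher in members, and Lum (1148 against 3198 CPM) and Bgn (1093 against 2557 CPM) lower, each in all 6 libraries. Adamts2, the procollagen N-proteinase, stood at 1334 against 323 CPM and Pi16, a peptidase inhibitor of fibroblasts, at 1996 against 378 CPM. The tendon genes were mixed: Tnmd (2822 against 505 CPM) and Mkx were higher in members, while the tendon transcription factor Scx (13.7 against 29.4 CPM), Thbs4 (67.99 against 127 CPM) and Comp (36.5 against 235 CPM) were lower. Cartilage genes were low in members, with Col2a1 at 0.796 against 35.4 CPM and Cnmd at 2.498 against 92.6 CPM. Among the lowest ratios were also Chil1, Msmp, Cytl1 (39.4 against 982 CPM), G0s2, Dlk1, Spp1, Mia, Chad and Mgp (38.8 against 715 CPM).

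Markers of leukocytes, vascular endothelium and cartilage were low in the members. The summed list of 12 leukocyte genes ranged from 2.96 to 53.1 CPM over the 6 libraries, that of 9 vascular endothelial genes from 24.8 to 40.4 CPM, and that of 12 cartilage genes from 3.23 to 70.8 CPM with Col9a2 and Matn1 at 0. The 9 pericyte and smooth muscle genes summed to 304 to 396 CPM in members and 267 to 358 CPM in other fibroblasts. Of 10 fibroblast genes 4 were used by the gate, and the other 6 (Pdgfra, Pdgfrb, Lum, Dpt, Mfap5 and Sparc) summed to 17238 to 19069 CPM in members and 21067 to 23554 CPM in other fibroblasts over the 6 libraries. RNA of keratinocytes differed between the groups: 10 marker genes, none of them at 0, summed to 806 to 1824 CPM in members of control libraries and to 276 to 378 CPM in members of OVA-sensitized libraries. Keratinocyte barcodes made up 26.3% ± 0.416 of quality-passing barcodes in control libraries and 14.3% ± 1.36 in OVA-sensitized libraries.

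No difference in how frequent the members were among fibroblasts was detected between the groups. They made up 7.35%, 6.75% and 8.28% of gated fibroblasts in the control libraries (7.46% ± 0.773, SD, n = 3) and 7.47%, 7.78% and 7.60% in the OVA-sensitized libraries (7.62% ± 0.152, n = 3). These ranges overlapped, and the two-sided exact permutation p was 0.7. Of all quality-passing barcodes they were 1.95%, 1.78% and 2.23% in controls and 2.32%, 2.64% and 2.59% after OVA, which did not overlap (exact permutation p = 0.1, the smallest that 3 against 3 libraries allow). In the same barcodes gated fibroblasts were 26.6% ± 0.313 in controls and 33.0% ± 1.73 after OVA. With members limited to 30 or more UMIs the log2 ratio of the share of all barcodes was 0.14 in place of 0.34, and that of the share of gated fibroblasts was -0.17 in place of 0.03.

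**Figure D3:**
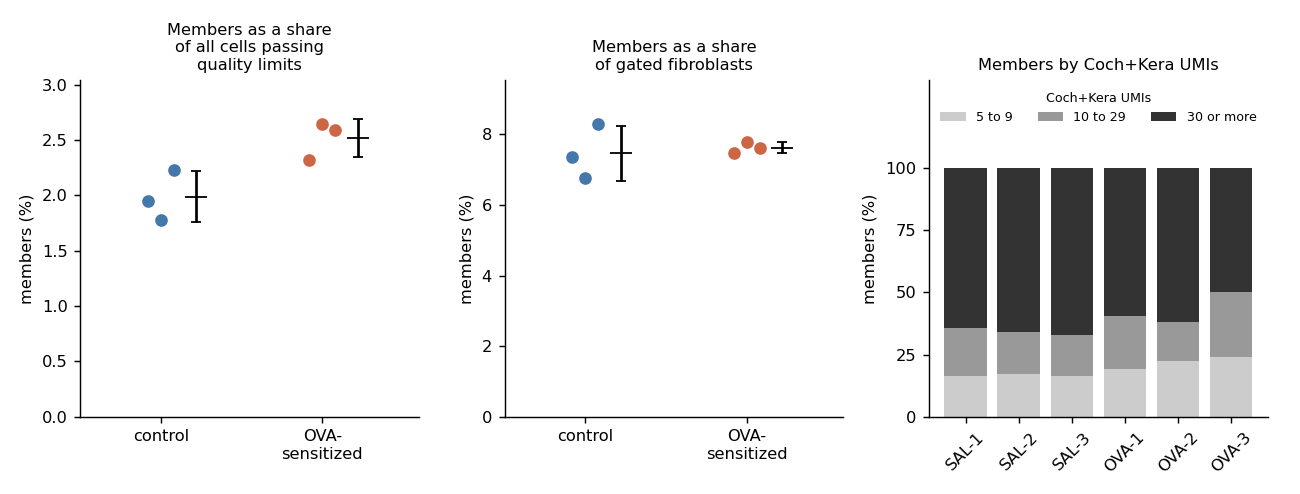
Members as a percentage of quality-passing barcodes (left) and of gated fibroblasts (middle), 1 point per library with the mean and SD of 3 libraries, and members of each library split by their Coch and Kera UMIs (right). The share of gated fibroblasts overlaps between groups, and the band of 30 or more takes 64.4% to 67.0% of members in control libraries and 50% to 62.0% in OVA-sensitized libraries.

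The makeup of the members by Coch and Kera UMIs is given as a description, since the rule used these UMIs. Cells with 30 or more UMIs were 64.4%, 65.9% and 67.0% of members in controls and 59.6%, 62.0% and 50% after OVA. They gave 69.4% ± 2.49 of the members' UMIs in controls and 52.8% ± 6.89 after OVA. Median depth in the band of 5 to 9 was 3921 ± 214 UMIs in controls and 6449 ± 107 after OVA. The median member held 3867, 4044.5 and 4453 UMIs in controls and 5270.0, 5141.5 and 5400.5 after OVA. Other fibroblasts were deeper after OVA in the same way, with 4235.5 ± 175 UMIs in controls and 5691 ± 174 after OVA. The members of a library summed to 338214 to 618713 UMIs, which sets the precision of the gene tests. No barcode sequence was a member in more than 1 library, and 18 members shared their sequence with a quality-passing barcode of another library.

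In the members OVA sensitization was accompanied by higher RNA of matrix, chemokine and antigen presentation genes and by lower RNA of Fmod and of keratinocyte genes. Of 5346 genes tested by edgeR on sums per library, 73 were called (1.37%) at an adjusted p under 0.05: 44 rose (0.823%) and 29 fell (0.542%). These counts hold 3 genes of the rule, Col3a1 among the rises and Kera and Krt14 among the falls. Leaving out 1 library changed these counts to between 24 and 64 rises and between 19 and 38 falls, with 28 rises without EC-SAL replicate 2, 24 without EC-SAL replicate 3 and 19 falls without EC-SAL replicate 2. CPM of the 2 groups did not overlap in 809 tested genes (15.1%), among them all 73 called genes. DESeq2 also called 31 of the 44 rises and 24 of the 29 falls, and 20 rises and 17 falls were called by DESeq2 and by edgeR with each library left out in turn. With the limit at 0.1% of UMIs 12 of the 44 rises kept their edgeR call, at 10 UMIs 8 and at 30 UMIs 1. Of the 29 falls 19, 16 and 13 did so in the same order. Cells with 30 or more Coch and Kera UMIs gave 69.4% of the members' UMIs in controls and 52.8% after OVA. The part of this makeup in the changes was not tested. In other fibroblasts, whose summed depth was higher, 674 of 11984 genes rose (5.62%) and 601 fell (5.02%). Of the members' calls, 28 of 44 rises (63.6%) and 20 of 29 falls (69.0%) were also called in the same direction in other fibroblasts, which are 4.15% and 3.33% of the calls there.

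Tenascin-C (Tnc), a matricellular glycoprotein of wounded and remodelling tissue, had the largest log2 fold among the matrix genes that rose. It stood at 39.8, 20.7 and 13.5 CPM in the control libraries and 179, 194 and 218 CPM in the OVA-sensitized libraries. Every OVA-sensitized library lay above every control (log2 fold 2.96 ± 0.26 SE, edgeR adjusted p = 8.29e-05). A Tnc UMI was found in 14 of 283 control members (4.92%) and in 58 of 289 members after OVA (20.2%), beside 6.67% and 12.2% of keratinocyte barcodes, so that the share of control members is not read as expression. With each cell thinned to 2000 UMIs the shares were 3.24% and 10.7% of members and 13.5% and 28.2% of other fibroblasts. In other fibroblasts Tnc rose by 1.58 on the log2 scale, and the difference between the rises was 1.41 ± 0.27 (edgeR adjusted p = 0.0063). That difference was 1.46 (adjusted p = 0.121) with the limit at 10 Coch and Kera UMIs and 0.61 ± 0.63 (adjusted p = 0.973) at 30, and its adjusted p was up to 0.0852 without EC-SAL replicate 2 or 3.

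Periostin and the crosslinking enzyme Lox rose as well. Postn, which encodes periostin, a matricellular protein known in allergic inflammation, stood at 1179, 1218 and 1229 CPM in the control libraries and 2304, 2079 and 2539 CPM in the OVA-sensitized libraries (log2 fold 0.93 ± 0.11 SE, edgeR adjusted p = 0.000224). Lox stood at 90.7, 112 and 122 CPM in the control libraries and 361, 260.2 and 318 CPM in the OVA-sensitized libraries (log2 fold 1.53 ± 0.17 SE, edgeR adjusted p = 0.000196). The control libraries lay close together for both genes and below all OVA-sensitized libraries. Of 31 matricellular and elastic-fibre genes tested, 9 rose and none fell, and their median log2 fold was 0.58 beside -0.00079 over all genes tested. The 9 were Tnc, Postn, Eln (elastin, 1.46, adjusted p = 0.00342), Mfap4 (1.33, adjusted p = 0.0202), Cilp (2.56, adjusted p = 0.0296), Efemp1 (2.58, adjusted p = 0.0217), Fbln1 (fibulin-1, 1.79, adjusted p = 0.0432), Thbs2 (1.09, adjusted p = 0.0499) and Tnn (tenascin-N, 1.90, adjusted p = 0.0475), each a log2 fold from edgeR. DESeq2 called 4 of the 9, Tnc, Postn, Eln and Fbln1. Fbln1 lost its edgeR call without EC-SAL replicate 2 or 3 or EC-OVA replicate 3. Cilp lost its call with any 1 of 5 libraries left out, and Tnn and Thbs2 each with any 1 of 4. Mfap4 lost its call without EC-SAL replicate 2 and Efemp1 without EC-OVA replicate 3. Tnc, Postn, Eln and Lox kept theirs with each library left out.

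Collagen genes rose in part. Of 22 fibrillar and associated collagen genes tested 7 rose, the gate's Col3a1 included, and none fell, with a median log2 fold of 0.26. Col6a2, a chain of the beaded collagen VI, stood at 394, 343 and 434 CPM in the control libraries and 789.9, 813 and 946 CPM in the OVA-sensitized libraries (log2 fold 1.12 ± 0.13 SE, edgeR adjusted p = 0.000214). Col12a1, a collagen that lies on fibril surfaces, stood at 90.7, 82.8 and 65.3 CPM in the control libraries and 258, 173 and 193 CPM in the OVA-sensitized libraries (log2 fold 1.38 ± 0.19 SE, edgeR adjusted p = 0.00168). Neither gene overlapped between groups. Col6a1 (0.83), Col6a3 (1.09), Col5a1 (1.05) and Col5a2 (0.79) rose on the log2 scale, and Col3a1, which the gate used, had 0.88. The abundant chains Col1a1 (0.21) and Col1a2 (0.05), also in the gate, had small differences. Among enzymes, 1 of 17 collagen processing and crosslinking genes rose, Lox. Of 16 matrix proteases and inhibitors 3 rose: the metalloprotease inhibitor Timp1 (0.87, adjusted p = 0.000912), the plasminogen activator Plat (1.84, adjusted p = 0.00755) and the gelatinase Mmp2 (0.61, adjusted p = 0.048). Mmp2 did not pass in DESeq2 (adjusted p = 0.0634), Plat lost its edgeR call without EC-SAL replicate 3, and Col5a2 lost its call without EC-SAL replicate 2 or 3 or EC-OVA replicate 3.

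**Figure D4:**
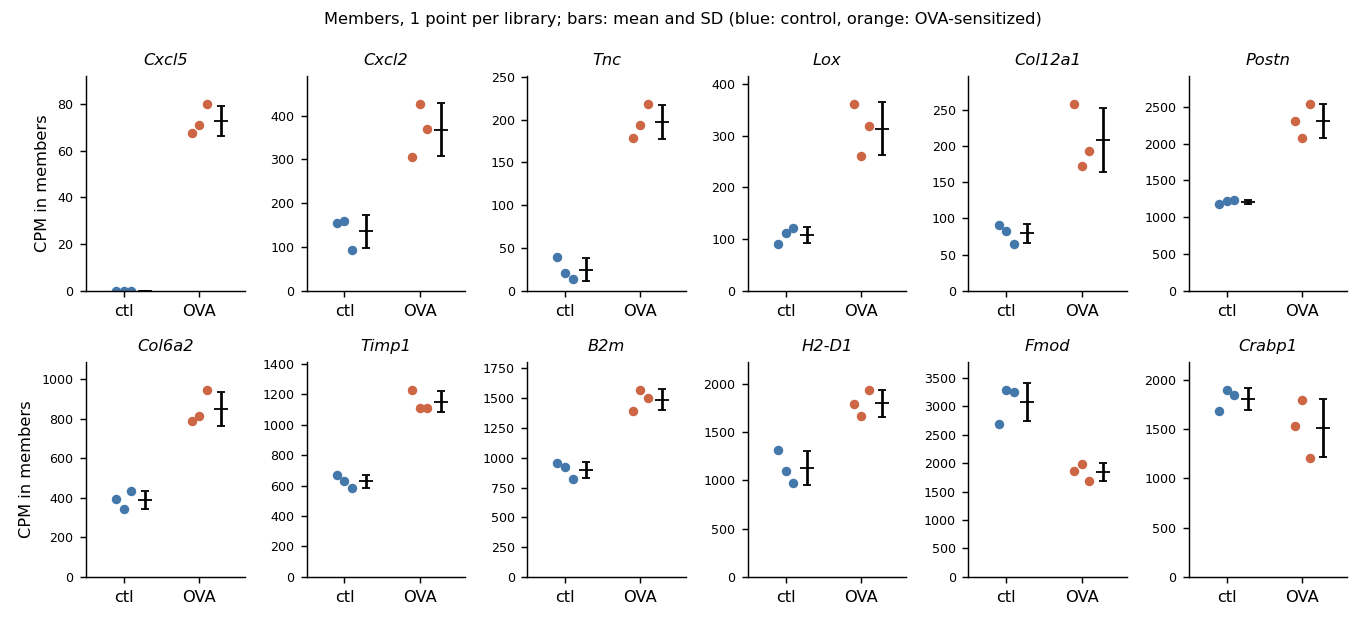
Level in members (CPM, linear axis from 0) of 12 genes, 1 point per library, in 3 control (ctl, blue) and 3 OVA-sensitized (OVA, orange) libraries, with bars for the mean and SD. The groups do not overlap for Cxcl5, Cxcl2, Tnc, Lox, Col12a1, Postn, Col6a2, Timp1, B2m, H2-D1 and Fmod, and overlap for Crabp1.

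Among the genes that name the population, Fmod fell. It stood at 2696, 3291 and 3253 CPM in the control libraries and 1868, 1985 and 1683 CPM in the OVA-sensitized libraries (log2 fold -0.74 ± 0.12 SE, edgeR adjusted p = 0.00409), with all controls above all OVA-sensitized libraries. In other fibroblasts Fmod had a log2 fold of -0.57 (edgeR adjusted p = 0.000977), and the difference between the folds was -0.15 ± 0.10 (edgeR adjusted p = 0.825). Kera, a gene of the rule and given without a call, stood at 358, 381 and 401 CPM in the control libraries and 228, 239 and 204 CPM in the OVA-sensitized libraries. Coch, likewise of the rule, stood at 14513, 16560.5 and 16033 CPM in the control libraries and 13064, 13759 and 11468 CPM in the OVA-sensitized libraries. For both, every OVA-sensitized library lay below every control, but these UMIs chose the members. Members with 30 or more of them gave 69.4% of the members' UMIs in controls and 52.8% after OVA. In those cells Coch stood at 20452, 22196 and 21445 CPM in the control libraries and 21184, 23558.5 and 23342 CPM in the OVA-sensitized libraries. Kera stood at 392, 436 and 444 CPM in controls and 302, 381 and 405 CPM after OVA. There the groups overlapped for both genes. The part of this makeup in the lower values was not tested. Over all gated fibroblasts, whose choice did not use Coch or Kera, Kera fell by 0.53 on the log2 scale (edgeR adjusted p = 0.012) and Coch did not pass (-0.26, adjusted p = 0.219). In that test 5.84% of 12098 genes rose and 4.65% fell, and without EC-OVA replicate 2 Coch passed at -0.40 (adjusted p = 0.0345). Tnmd had -0.36 (adjusted p = 0.196) and Crabp1 -0.25 (adjusted p = 0.628), and neither passed.

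The proteoglycan family moved in both directions. Of 12 tested of 17 small leucine-rich proteoglycan genes, Fmod fell, Bgn rose and the rule gene Kera was lower, and the median log2 fold was -0.45. Bgn stood at 894, 775 and 839.6 CPM in the control libraries and 1362, 1251 and 1438 CPM in the OVA-sensitized libraries (log2 fold 0.69 ± 0.11 SE, edgeR adjusted p = 0.00342), with no overlap. Its rise exceeded that of other fibroblasts by 0.60 ± 0.09 (edgeR adjusted p = 0.000737). The difference was 0.46 (adjusted p = 0.111) with the limit at 10 UMIs, 0.24 (adjusted p = 0.902) at 30 and 0.34 (adjusted p = 0.377) at 0.1% of UMIs, and did not pass there. Ogn (-0.53, adjusted p = 0.0561), Aspn (-0.41, adjusted p = 0.107), Prelp (-0.52, adjusted p = 0.139) and Lum (0.67, adjusted p = 0.0807) did not pass.

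Neutrophil-attracting chemokines rose. Cxcl5 had no UMI in the 3 control libraries and stood at 67.5, 71.1 and 80.1 CPM in the OVA-sensitized libraries (122 UMIs), which makes it at least 30.03-fold higher, set against 3 counts over the control group. These UMIs lay in 10 of 289 cells (3.37%), with 1, 5 and 4 cells in the 3 libraries and up to 34 UMIs in a cell. No cell of 283 in controls held one, which allows a share of cells with a Cxcl5 UMI of up to 1.06% (counting error only, and no limit on cells that express the gene), and keratinocyte barcodes held one in 0.253% and 1.31%. Tnc was also detected in 9 of the 10 cells, beside 58 of all 289 members after OVA (20.2%), which is given as a description. Over the bands, the cells with 30 or more Coch and Kera UMIs held 47 of the 122 UMIs, in 3 of 166 cells after OVA. The band of 5 to 9 held a Cxcl5 UMI in 4 of 63 cells and that of 10 to 29 in 3 of 60. Other fibroblasts held one in 1.35% of cells in controls and 9.77% after OVA, above the members in both groups.

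Cxcl2 stood at 155, 159.7 and 92.3 CPM in the control libraries and 306, 427 and 369 CPM in the OVA-sensitized libraries, with no overlap (log2 fold 1.45 ± 0.20 SE, edgeR adjusted p = 0.00149). The monocyte chemokine gene Ccl7 stood at 1811, 1189 and 912 CPM in the control libraries and 2340.0, 1943 and 3245 CPM in the OVA-sensitized libraries (log2 fold 0.94 ± 0.21 SE, edgeR adjusted p = 0.048); its call was lost without EC-SAL replicate 2 or 3 or EC-OVA replicate 1 or 3. Ccl2, which encodes a further monocyte chemokine, stood at 7305, 8036 and 6742 CPM in the control libraries and 6740.1, 5597 and 6973 CPM in the OVA-sensitized libraries and did not pass (log2 fold -0.20 ± 0.11 SE, edgeR adjusted p = 0.616). Of 9 chemokine genes tested 3 rose, with a median log2 fold of 0.94. Ccl8 (1.36, adjusted p = 0.43) and Cxcl12 (0.34, adjusted p = 0.792) did not pass, and Ccl11, an eosinophil chemokine gene with 1 UMI in controls and 30 after OVA, was too low to test (ratio 22.2, 95% exact interval 3.68 to 904, counting error only).

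The promoter of Cxcl2 is shown because the gene rose in the members and its window holds 2 runs of NF-kB letters. RefSeq's table (GRCm38.p6) gives 250 bases before to 50 after the start, on the plus strand at chr5:90903649-90903948. Capitals mark the letters of NF-kB (GGG, any 2 bases, TTTCC) on either strand, found 97 and 78 bases before the start and in 1.63% of 32851 promoters of this length. The search also took AP-1 (TGANTCA, 7.81%), the TATA box (TATAAA, 13.6%), an interferon-stimulated element (GAAA, any 2 bases, GAAA, 3.44%) and CRE (TGACGTCA, 1.79%). A match describes the letters and is not a site.
Cxcl2: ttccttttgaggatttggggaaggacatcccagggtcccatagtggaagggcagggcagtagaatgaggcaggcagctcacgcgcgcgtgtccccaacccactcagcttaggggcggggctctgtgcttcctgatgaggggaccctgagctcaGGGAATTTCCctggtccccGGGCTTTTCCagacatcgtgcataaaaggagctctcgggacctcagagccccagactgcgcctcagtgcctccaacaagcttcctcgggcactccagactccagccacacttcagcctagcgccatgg

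Genes of MHC class I, which present peptides to CD8 T cells, rose together in part. B2m, the shared light chain, stood at 953, 919.5 and 824 CPM in the control libraries and 1395, 1569 and 1499 CPM in the OVA-sensitized libraries (log2 fold 0.73 ± 0.11 SE, edgeR adjusted p = 0.00342). The heavy chain gene H2-D1 stood at 1316, 1097 and 970.1 CPM in the control libraries and 1792, 1665 and 1939.8 CPM in the OVA-sensitized libraries (log2 fold 0.67 ± 0.12 SE, edgeR adjusted p = 0.0109). All OVA-sensitized libraries exceeded all controls for both. H2-K1 rose by 0.60 (edgeR adjusted p = 0.0315), and 3 of 11 tested genes of the list passed, with a median of 0.26. H2 genes are similar copies, so their reads may be split between them. H2-D1 lost its call without EC-SAL replicate 2 or 3 (adjusted p up to 0.0661). Psmb8, an immunoproteasome subunit that interferon-γ induces, rose by 1.01 (adjusted p = 0.048). Neither H2-K1 nor Psmb8 passed in DESeq2 (adjusted p = 0.077 and 0.242), and each lost its edgeR call with any 1 of 4 libraries left out. In other fibroblasts H2-D1 did not pass (0.17, adjusted p = 0.114), and the difference of its change in members from that was 0.53 ± 0.09 (edgeR adjusted p = 0.00303). For B2m the difference was 0.45 ± 0.10 (adjusted p = 0.0216). Neither difference passed in DESeq2 (adjusted p = 0.0574 for H2-D1 and 0.177 for B2m) or with the limit at 30 UMIs, where they were 0.48 (adjusted p = 0.126) and 0.18 (adjusted p = 0.938). That of B2m also had an adjusted p of up to 0.187 with 1 library left out, lost without EC-SAL or EC-OVA replicate 2 or 3.

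The promoters of B2m and H2-D1 are set side by side because these genes rose together. The windows are those of RefSeq's table, both on the plus strand, at chr2:122147437-122147736 and chr17:35262844-35263143. In B2m the capitals mark TATA letters 152 bases before the start (minus strand), an interferon-stimulated element 139 before and NF-kB letters 126 before (minus strand). In H2-D1 they mark TATA letters 26 bases before the start. Only exact matches to the listed letters are marked, so a window without a mark is not shown to lack that element.
B2m: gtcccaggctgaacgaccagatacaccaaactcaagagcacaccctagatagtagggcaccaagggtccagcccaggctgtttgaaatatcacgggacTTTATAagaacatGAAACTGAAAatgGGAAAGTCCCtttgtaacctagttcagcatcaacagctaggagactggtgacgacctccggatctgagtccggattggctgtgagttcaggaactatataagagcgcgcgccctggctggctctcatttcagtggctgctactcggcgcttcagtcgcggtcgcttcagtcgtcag
H2-D1: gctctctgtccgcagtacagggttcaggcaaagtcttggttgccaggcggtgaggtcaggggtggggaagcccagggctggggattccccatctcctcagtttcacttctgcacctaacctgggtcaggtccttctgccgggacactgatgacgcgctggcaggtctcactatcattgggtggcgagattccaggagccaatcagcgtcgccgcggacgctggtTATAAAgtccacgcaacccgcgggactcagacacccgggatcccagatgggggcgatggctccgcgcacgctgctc

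Signalling genes with large folds were low in level. Fst, the activin antagonist follistatin, stood at 30.96, 8.87 and 15.8 CPM in the control libraries and 73.4, 194 and 111 CPM in the OVA-sensitized libraries (log2 fold 2.72 ± 0.43 SE, edgeR adjusted p = 0.00363), and Inhba, a subunit of activin A, rose by 1.83 (adjusted p = 0.0122). Inhba lost its call without EC-SAL or EC-OVA replicate 3. These were the 2 rises among 22 TGF-β, activin and BMP genes tested. A Fst UMI was found in 5.87% of control members and 15.6% after OVA. The shares were 40.1% and 44.3% in keratinocyte barcodes and 39.6% and 48.7% in other fibroblasts. The share of members lay below both in each group and is not read as expression. Igf1 (0.61) and Igfbp2 (0.85) rose among 15 growth factor genes, and Igf1 did not pass in DESeq2 (adjusted p = 0.102). Igf1 also lost its edgeR call with any 1 of 5 libraries left out. Serpina3n, a protease inhibitor of a multigene family, went from 2 UMIs to 57 (ratio 21.04, 95% exact interval 5.56 to 178, counting error only). The 57 UMIs lay in 16 of 289 cells. Emb (2.66), Stmn1 (2.12), the only rise among 5 tested cell cycle genes, and Cyp4b1 (2.01) completed the rises of largest fold. Emb lost its call with any 1 of 4 libraries left out (edgeR adjusted p up to 0.0917), while Stmn1 and Cyp4b1 kept theirs.

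Most falls were genes of the epidermis. Of the 29 genes that fell, 20 stood more than 10-fold higher in keratinocyte barcodes than in members, and all 20 were also lower after OVA in endothelial barcodes. The 20 include Krt14, a gene of the rule. Krt10, a keratin of the upper epidermis, stood at 772, 1135 and 326 CPM in the control libraries and 133, 192 and 158 CPM in the OVA-sensitized libraries (log2 fold -2.19 ± 0.34 SE, edgeR adjusted p = 0.00342). Ly6d fell by 3.08 on the log2 scale (edgeR adjusted p = 0.000196). Urah, Aqp3, Plet1, Calm4, Krt1, Serpinb2, Serpinb5 and Sfn fell with them. Of 7 tested keratinocyte markers 6 fell, with a median log2 fold of -2.19, and in other fibroblasts 6 of 10 fell. The part of keratinocyte RNA in these falls was not tested. The remaining 9 were Fmod, Krt2, Krt10, Itgb4, Trappc3, Cytl1, Rps19bp1, Rcan1 and Kera, whose UMIs chose the members and whose fall is not read as a call. Rcan1, a calcineurin inhibitor, stood at 153, 180.4 and 162 CPM in the control libraries and 89.3, 80.8 and 76.4 CPM in the OVA-sensitized libraries (log2 fold -1.001 ± 0.16 SE, edgeR adjusted p = 0.00392), with no overlap. Itgb4 (-0.84, edgeR adjusted p = 0.0426) is a gene of keratinocytes too, but its mean level was higher in members than in keratinocyte barcodes, as given above. Itgb4, Trappc3 and Rps19bp1 did not pass in DESeq2. With each library left out in turn, 17 of the 29 falls kept their edgeR call. Rps19bp1 lost its call with any 1 of the 6 libraries left out, Krt15 and Tuba4a with any 1 of 5. Itgb4 and Ly6g6c lost theirs with any 1 of 4 and Trappc3 with any 1 of 3. Cytl1, Krt1, Aqp3 and Serpinb5 each lost their edgeR call with 1 to 3 of the libraries left out singly, all but Krt1 without EC-SAL replicate 2.

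Several pathways gave no call. No tested gene of the type 2 receptor and response list (11 genes, median 0.14), the type I interferon list (11, median 0.45), the complement list (7, median 0.71), the Wnt list (15, median 0.07), the contractile list (12, median 0.37) or the retinoid list (7, median 0.04) passed in edgeR. At an unadjusted p under 0.05 these lists held 3, 2, 4, 0, 4 and 0 genes in that order, and DESeq2 called none of them. The 26 immediate early genes had no edgeR or DESeq2 call in members, 3 with an unadjusted p under 0.05 and a median of -0.09, while 18 of 27 fell in other fibroblasts (median -0.28). Il13ra1 (0.54, adjusted p = 0.627) and Il6 (-0.56, adjusted p = 0.587) did not pass. Il4ra, a chain of the receptors for IL-4 and IL-13, had 21 UMIs in controls and 13 after OVA and was too low to test, as was the alarmin gene Il33 with 13 and 11 UMIs.

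Each change was then read in the 352 cells with 30 or more Coch and Kera UMIs, where Crabp1, Fmod and Tnmd are high; cells with fewer then count as other fibroblasts. Here 186 control and 166 OVA-sensitized cells were summed, 3769 genes were tested, 1 rose (H2-D1) and 15 fell in edgeR. Of the 44 rises, 32 could be tested, 32 had the same sign and 1 passed. Of the 29 falls, 19 could be tested, 19 had the same sign and 13 passed. These cells are part of the members that gave the calls, so the shared signs are no separate support. The single rise, H2-D1, stood at 1101, 1081 and 1056 CPM in the control libraries and 1679.7, 1585 and 1775 CPM in the OVA-sensitized libraries (log2 fold 0.62 ± 0.12, adjusted p = 0.0217, edgeR). Of the matrix genes none passed in these cells: Tnc had 2.19 ± 0.73 (adjusted p = 0.618), Postn 0.66 ± 0.17 (adjusted p = 0.189), Lox 1.25 ± 0.42 (adjusted p = 0.635), Col6a2 0.40 ± 0.18 (adjusted p = 0.913) and Timp1 0.25 ± 0.27 (adjusted p = 0.953). Tnc stood at 49.9, 4.19 and 9.51 CPM in the control libraries and 216, 17.4 and 85.1 CPM in the OVA-sensitized libraries, so that the groups overlapped. Cxcl2 had 2.22 ± 0.49 (adjusted p = 0.0716) and B2m 0.46 ± 0.13 (adjusted p = 0.355). Fmod had -0.36 ± 0.13 (adjusted p = 0.679), against -0.74 over all members.

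The falls in these cells were 12 epidermal genes and Rcan1, Igfbp6 and Tppp3. Rcan1 stood at 193, 226 and 174 CPM in the control libraries and 75.6, 105 and 93.2 CPM in the OVA-sensitized libraries (log2 fold -1.11 ± 0.21, adjusted p = 0.0217, edgeR). Igfbp6, which binds insulin-like growth factor II, stood at 519, 578 and 580.1 CPM in the control libraries and 374, 305 and 332 CPM in the OVA-sensitized libraries, and Tppp3, a tubulin-binding protein of tendon sheath cells, at 1121, 1009.7 and 1084 CPM in the control libraries and 646, 701 and 758 CPM in the OVA-sensitized libraries. The groups did not overlap for any of the 3. With cells that held any UMI of a set of markers of other cell types, among them Ptprc, Rgs5, Sox10, Krt1, Krt10 and Col2a1, left out of all members, edgeR tested 2310 genes and called 1 rise and 0 falls, with 76 higher and 66 lower at an unadjusted p under 0.05; DESeq2 was not run on these cells.

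**Figure D5:**
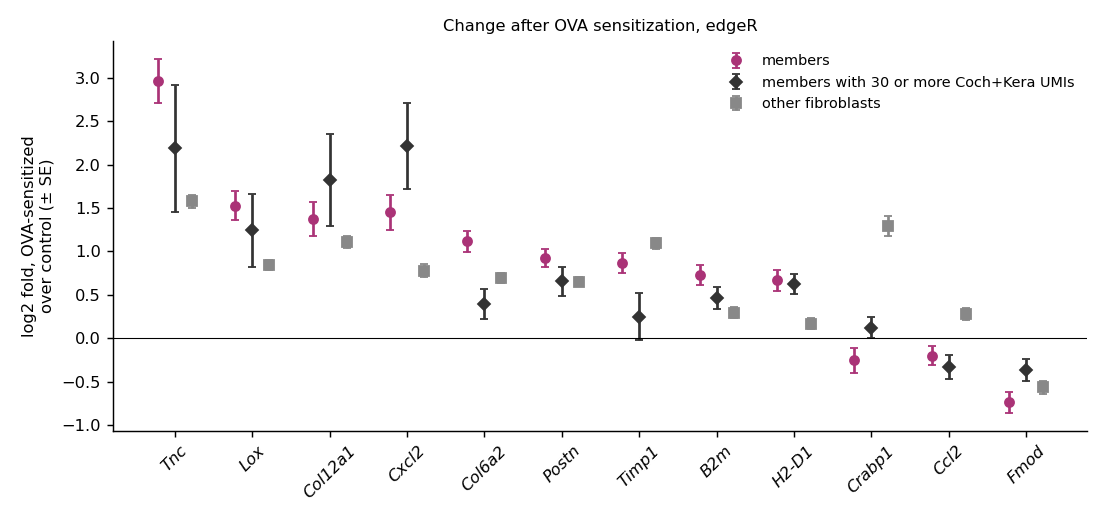
Log2 fold of OVA-sensitized over control (points) with its SE (bars) from edgeR for 12 genes in all members, in members with 30 or more Coch and Kera UMIs and in other fibroblasts. H2-D1 keeps its value in the cells with 30 or more (0.62 beside 0.67), Timp1 and Col6a2 are lower there, and Crabp1 and Ccl2 are above 0 in other fibroblasts and not in all members.

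Whether the members changed differently from other fibroblasts was tested by the interaction of cell set and treatment on the 12 sums. Of 11052 genes 63 were called (0.57%), 36 with a higher change in members (0.326%) and 27 with a lower one (0.244%). With DESeq2 these counts were 7 and 7, and edgeR gave 18 and 16 without EC-SAL replicate 2, 19 higher changes without EC-SAL replicate 3 and 17 lower ones without EC-OVA replicate 2.

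Crabp1 rose in other fibroblasts and did not pass in members. In other fibroblasts it stood at 63.4, 56.1 and 66.5 CPM in the control libraries and 181, 143 and 128 CPM in the OVA-sensitized libraries (log2 fold 1.30 ± 0.12 SE, edgeR adjusted p = 0.000148). In members the values were 1676, 1895 and 1839 CPM in the control libraries and 1532, 1791 and 1208 CPM in the OVA-sensitized libraries, which overlapped. The difference was -1.54 ± 0.13 (edgeR adjusted p = 6.19e-09). With the limit at 30 UMIs it was -1.02 ± 0.14 (adjusted p = 0.000385), and Crabp1 in the members stood at 2461, 2526 and 2362 CPM in the control libraries and 2497, 3009.9 and 2533 CPM in the OVA-sensitized libraries. At that limit the members' own fold was 0.12 on the log2 scale (adjusted p = 0.953), while over all cells other fibroblasts went from 62.02 ± 5.34 to 150.4 ± 27.2 CPM.

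A few further genes differed at both limits. Ccn4, a matricellular protein of the CCN family, rose in other fibroblasts from 32.6 ± 4.28 to 67.1 ± 5.41 CPM and stood at 219, 204 and 308 CPM in the control libraries and 210.4, 199 and 218 CPM in the OVA-sensitized libraries in members (difference -1.25, edgeR adjusted p = 8.72e-05; at 30 UMIs -1.04 ± 0.18, adjusted p = 0.00361). Ccl2 rose in other fibroblasts by 0.28 and not in members (difference -0.46, edgeR adjusted p = 0.00198; DESeq2 adjusted p = 0.0989; at 30 UMIs -0.59 ± 0.11, adjusted p = 0.0131). Fos, an immediate early gene, fell by 0.65 on the log2 scale in other fibroblasts (edgeR adjusted p = 0.000858) and had -0.17 in members, which did not pass. The difference was 0.50 (edgeR adjusted p = 0.00404; DESeq2 adjusted p = 0.0673; at 30 UMIs 1.21 ± 0.18, adjusted p = 0.000385). Aspn (-0.52) and Adamts2 (-0.62) had lower changes in members over all members, and at 30 UMIs neither passed (adjusted p = 0.676 and 0.536).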

How the data were processed

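The deposited matrices hold whole UMI counts per gene and barcode for 6 libraries, written by Cell Ranger 3.1.0 per the file headers. The submitters' processing notes also name STAR and mm10, and the annotation release is not given in the sources used here. The authors' matrices list 38206 barcodes, each with at least 500 UMIs, and 32285 genes.

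Members were chosen by the limits given above, which use no label of treatment. The members, the gene lists and the limits were chosen with earlier results of these data known. Counts were summed over members, over other fibroblasts and over all gated fibroblasts of each library. Sums were tested with edgeR 4.0.16 in R 4.3.3 (filterByExpr, TMM, quasi-likelihood F test, Benjamini-Hochberg over all genes tested, threshold 0.05), with treatment as the only term. The difference of response was the interaction of cell set and treatment, with library as a block. SE is the absolute log2 fold divided by the square root of F. CPM are counts per 1000000 UMIs of the summed cells. Library values were compared by two-sided exact permutation tests (3 against 3, smallest p 0.1). Genes of the rule are given without a call of their own, though the counts of called genes hold Col3a1, Kera and Krt14. Doublets were scored with Scrublet in scanpy 1.11.5 and kept: 13 members and 379 other fibroblasts had a mark, at an expected rate of 0.8% per 1000 barcodes.

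Named genes were the 12 largest rises and falls among called genes with no overlap between groups and at least 20 CPM in the higher group, up to 4 genes of smallest p per list, the 8 largest differences of response in each direction, and a fixed list of label genes, chemokines and cytokines. Rcan1, Itgb4, Trappc3, Ccn4, Fos, Aspn, Igfbp6, Tppp3, Thbs4, Comp, Thbs2, Col5a2 and Col6a1, the bands of Coch and Kera UMIs and the limit at 30 UMIs were chosen after values were seen. Alternatives covered the limits, doublets, DESeq2 1.42.0, other size factors, no filter and each library left out. Some genes that these rules name are not reported here. The edgeR fit was tested on simulated data. Gene positions come from GENCODE M21 (32158 of 32285 IDs matched), promoters from RefSeq's table for GRCm38.p6, where Cxcl5 and Lox had no entry.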

Additional observations from a re-analysis of the deposited data

Results flagged for a closer look

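The following genes were among those with the largest differences between the change after OVA in members and the change in other fibroblasts, by the edgeR test of that difference over 11052 genes. Lower changes in members were found for Dapl1 (-7.47 on the log2 scale), Alb (-4.08), Thbd (-3.43), Cytl1 (-3.14), Urah (-2.50), Angptl4 (-2.27) and Calm4 (-1.69). Dapl1 went from 28 UMIs to 0 in members, which makes it at least 12.6-fold lower against 3 counts over the OVA-sensitized group. Thbd, the gene of thrombomodulin, went from 22 UMIs to 3 (ratio of control to OVA-sensitized 9.93, 95% exact interval 2.98 to 51.8, counting error only). Alb stood at 46.3 CPM in control and 20.6 CPM in OVA-sensitized members, against 0.426 CPM and 3.51 CPM in other fibroblasts. Cytl1 stood at 30.96, 169 and 22.5 CPM in the control libraries and 5.95, 4.85 and 3.64 CPM in the OVA-sensitized libraries in members, and without EC-SAL replicate 2, the highest library, its difference was -1.85 (adjusted p = 0.109). With cells scored as doublets left out it was -1.58 (adjusted p = 0.19), and DESeq2 did not call it (adjusted p = 0.301). Dapl1, Thbd and Urah also lost their calls with 1 library left out (adjusted p up to 0.339, 0.269 and 0.0883), among others EC-OVA replicate 2, and Calm4 did so without that library (0.0613). Urah and Calm4 are among the called falls that stand over 10-fold higher in keratinocyte barcodes. With the limit at 30 Coch and Kera UMIs, Alb (-2.27, adjusted p = 0.263), Dapl1 (-7.73, adjusted p = 0.329) and Cytl1 (-2.72, adjusted p = 0.437) did not pass by edgeR. Calm4 passed there (-1.97, edgeR adjusted p = 0.0382).

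Angptl4, a secreted inhibitor of lipoprotein lipase, stood at 18.9, 17.5 and 10.1 CPM in the control libraries and 47.9, 41.1 and 57.8 CPM in the OVA-sensitized libraries in other fibroblasts and at 57.5, 91.7 and 22.5 CPM in the control libraries and 45.6, 35.6 and 27.3 CPM in the OVA-sensitized libraries in members. The groups overlapped in members and not in other fibroblasts. With the limit at 30 Coch and Kera UMIs the difference was -2.77 ± 0.41 (adjusted p = 0.000415) by edgeR.

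Higher changes in members were found for Efemp1 (2.51), Cilp (2.49), Igfbp3 (2.29), Fst (2.29), Cyp4b1 (2.19), Fbln1 (1.94), Sowahc (1.77) and Stmn1 (1.47). Cilp stood at 30.96, 8.87 and 27.01 CPM in the control libraries and 185, 40.4 and 202 CPM in the OVA-sensitized libraries in members and at 279 CPM and 286 CPM in control and OVA-sensitized other fibroblasts. Over both groups Cilp was at 241 CPM in members with 5 to 9 Coch and Kera UMIs, at 157 CPM with 10 to 29 and at 11.5 CPM with 30 or more, and the share of members with 30 or more was lower after OVA. With the limit at 30 UMIs the differences were 0.79 ± 0.78 (adjusted p = 0.97) for Cilp, 1.73 ± 0.80 (adjusted p = 0.814) for Efemp1 and 2.12 ± 0.55 (adjusted p = 0.15) for Fst by edgeR. None of these 3 passed there. Fbln1 (0.71 ± 0.62, adjusted p = 0.963), Cyp4b1 (1.87 ± 0.45, adjusted p = 0.0948) and Igfbp3 (3.46 ± 0.92, adjusted p = 0.167) did not pass at that limit by edgeR either. In DESeq2 Efemp1 (adjusted p = 0.249) and Cilp (0.22) did not pass, and Igfbp3, Sowahc and Stmn1 had no adjusted p. These last 3 lost their edgeR calls with any 1 of 3 libraries left out, EC-SAL replicate 2 and EC-OVA replicate 2 among them in each case, and the difference of Igfbp3 ranged from 1.56 to 4.09 (adjusted p up to 0.233).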

How the results depend on the processing

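The called changes of members kept their sign in each setting that could test them, while counts depended on which cells were kept. These settings reuse the same libraries and largely the same cells, so the shared signs are no separate support. Depth limits the tests: other fibroblasts thinned to the members' totals gave 89 rises and 90 falls in place of 674 and 601. The limits at 30 UMIs and at Coch alone and that thinning were chosen after seeing the data.

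The log2 ratio of the members' share of quality-passing barcodes (0.34) was 0.16 with a limit of 0.1% of UMIs, 0.079 with cells holding UMIs of other cell types left out and 0.14 at 30 UMIs. That of gated fibroblasts (0.03) was -0.15, 0.16 and -0.17 in the same order, -0.16 with cells thinned to 3000 UMIs, and -0.04 to 0.11 with 1 library left out. Rises in members (44) numbered 67 at 3 UMIs, 8 at 10, 1 at 30, 12 at 0.1%, 1 without cells holding UMIs of other cell types, 141 with no filter and 24 to 64 with 1 library left out. Falls (29) numbered 16 at 10 UMIs, 15 at 30, 19 at 0.1%, 0 without those cells (66 at an unadjusted p under 0.05, edgeR), 80 with no filter and 19 to 38 with 1 library left out. In other fibroblasts rises were 178 and falls 139 without those cells, 380 and 281 by DESeq2, and 399 to 599 and 315 to 512 with 1 library left out. Higher responses in members (36) numbered 5 at 10 UMIs, 6 at 30, 8 at 0.1%, 5 without those cells, 60 with Coch alone at 5 UMIs, 89 with no filter, 7 by DESeq2 and 18 to 49 with 1 library left out. Lower responses (27) numbered 15 at 3 UMIs, 10 at 10, 8 at 30, 12 at 10% mitochondrial UMIs, 17 without doublets, 0 without those cells (103 unadjusted, edgeR), 50 with no filter, 7 by DESeq2 and 16 to 34 with 1 library left out. Over all gated fibroblasts Coch was -0.40 to -0.14 with 1 library left out, and Kera -0.41 (adjusted p = 0.20, edgeR) without those cells. Genes at least 4-fold lower in members (39) numbered 62 at 10 UMIs. Of 24 testable lower responses 5 changed sign without those cells: Cytl1 to 0.026, Calm4 to 0.29, Krt2 to 0.20, Ly6d to 0.50 and Ogn to 0.01. At 30 UMIs 2 of 36 higher responses did, Eln to -0.46 and Col3a1 to -0.25. The cause of these moves was not tested.

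Whether replicate numbers pair the libraries cannot be settled with 3 libraries per group. Over genes, deviations of same-numbered libraries correlated at 0.0892, 0.0554 and -0.0430, and those of other pairs ranged from -0.0959 to 0.0346. With the replicate number as a block edgeR gave 53 rises and 39 falls in members, with 43 of 44 and 28 of 29 calls shared, and 100 higher and 58 lower responses, with all 36 and 27 shared. The blocked shares were 0.34 (exact sign-flip p = 0.25) and 0.03 (p = 0.75).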
